A study of Homo sapiens with 16 samples.

Results

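The Hippo pathway and the target genes of its effectors YAP and TEAD were followed through 38 genes, taken by symbol from the 26485 genes listed in the count files of 2 colon cancer lines. They are 18 pathway parts (the coactivators, their DNA-binding partners, the kinase cassette, its upstream regulators and the VGLL cofactors) and 20 target genes, and the groups are described separately. LATS2, AMOTL1, AMOTL2, AJUBA and PTPN14 act in the pathway and are also reported as its targets. LATS2 was counted with the parts and the other 4 with the targets. CYR61 and CTGF are the older symbols of CCN1 and CCN2, as used in the files.

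SW480 was established from a primary colon tumour and SW620 from a lymph node metastasis of the same patient. In both, APC is truncated, which keeps the Wnt pathway active. Each was compared as SW480 GFP or SW620 GFP, the mock control with high Wnt activity, and as SW480 dnLEF1 or SW620 dnLEF1, in which Wnt activity is low. The dnLEF1 protein is a LEF1 that lacks the region binding beta-catenin, so that it occupies Wnt target genes without activating them. Polyadenylated RNA was sequenced from 4 libraries of each group, 16 in all, from cells of the same passage lifted with trypsin and EDTA. The labels do not say whether a line with a construct was 1 clone or a pool, how the construct was introduced, or whether the libraries of a group came from separate cultures. For that reason a p-value below rests on the scatter of these samples alone, and part or all of that scatter may be technical.

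In the Hippo pathway the kinases MST1 and MST2 (genes STK4 and STK3), with the scaffold SAV1, phosphorylate and activate LATS1 and LATS2, which work with the MOB1 adaptors. LATS kinases phosphorylate YAP (gene YAP1) and TAZ (gene WWTR1), and the phosphorylated coactivators are held in the cytoplasm or degraded. When the cassette is quiet, YAP and TAZ enter the nucleus, bind TEAD factors and switch on genes for secreted matrix proteins, cytoskeletal regulators and the pathway's own inhibitors. In the intestine YAP and TAZ are known for regeneration after injury, and they share components with the beta-catenin destruction complex. Because the main control is on the proteins, the RNA levels of the pathway parts do not report their activity.

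Promoters are shown for CTGF and ANKRD1, which did not pass the test for dnLEF1 in SW480, for NUAK2 and THBS1, the risen targets whose promoter holds the TEAD core, and for F3, a risen target without it. They were chosen with these matches and calls known. Each line gives the 250 bases before the RefSeq start on GRCh38.p14, 5′ to 3′ on the gene's own strand. CTGF lies at chr6:131951373-131951622 (minus strand), ANKRD1 at chr10:90921088-90921337 (minus), NUAK2 at chr1:205321746-205321995 (minus), THBS1 at chr15:39580829-39581078 (plus) and F3 at chr1:94541760-94542009 (minus). Capitals mark GGAATG, the core of the TEAD recognition sequence, on either strand (CATTCC where it is on the other strand), and, in F3 alone, the TGANTCA motif that AP-1 factors bind.
CTGF: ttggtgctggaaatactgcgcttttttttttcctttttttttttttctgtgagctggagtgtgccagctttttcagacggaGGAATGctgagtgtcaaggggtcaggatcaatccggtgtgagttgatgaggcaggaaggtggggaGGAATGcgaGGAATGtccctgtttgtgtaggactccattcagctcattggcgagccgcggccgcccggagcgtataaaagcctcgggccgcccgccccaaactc
ANKRD1: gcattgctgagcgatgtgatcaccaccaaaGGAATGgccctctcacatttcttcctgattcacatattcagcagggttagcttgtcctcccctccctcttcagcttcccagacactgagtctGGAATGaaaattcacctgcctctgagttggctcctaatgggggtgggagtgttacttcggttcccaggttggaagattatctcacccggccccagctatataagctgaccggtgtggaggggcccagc
NUAK2: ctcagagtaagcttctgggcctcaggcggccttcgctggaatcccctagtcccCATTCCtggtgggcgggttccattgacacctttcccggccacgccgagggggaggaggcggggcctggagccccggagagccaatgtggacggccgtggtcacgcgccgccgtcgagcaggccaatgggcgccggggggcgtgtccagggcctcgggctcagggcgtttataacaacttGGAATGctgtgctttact
THBS1: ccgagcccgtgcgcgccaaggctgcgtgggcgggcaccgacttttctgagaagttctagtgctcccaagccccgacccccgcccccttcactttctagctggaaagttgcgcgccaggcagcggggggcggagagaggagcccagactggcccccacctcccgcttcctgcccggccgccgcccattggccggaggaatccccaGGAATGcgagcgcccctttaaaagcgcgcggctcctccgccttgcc
F3: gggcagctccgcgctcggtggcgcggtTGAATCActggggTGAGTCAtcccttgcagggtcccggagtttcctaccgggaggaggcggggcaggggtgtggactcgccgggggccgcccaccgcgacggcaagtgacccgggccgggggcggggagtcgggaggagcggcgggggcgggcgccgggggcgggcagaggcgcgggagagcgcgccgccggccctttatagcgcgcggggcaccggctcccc

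The TEAD core occurred 3 times in the CTGF promoter, 2 times each in those of ANKRD1 and NUAK2, and 1 time in that of THBS1. Promoters were available for 30 of the 38 genes. The core was present in 7 of 15 target genes with a promoter (CTGF, ANKRD1, NUAK2, THBS1, and, with 1 match each, AMOTL2, AJUBA and PTPN14) and in 1 of 15 pathway parts, YAP1. Among all 35116 promoters of the same length, 11.9% held it. This and the shares below are per promoter, while a gene was counted if any of its promoters matched. Per promoter the core was in 7 of 17 for the target genes and in 1 of 24 for the parts. The core of TCF and LEF sites, CTTTGAT or, as its second form, CTTTGAA, searched on both strands, occurred in 1 target gene, AMOTL2, and in no pathway part, against 5.94% of all promoters. The AP-1 motif TGANTCA, also searched on both strands, occurred in F3 (2 matches), ANKRD1, LATS1 and MOB1B, against 6.57% of all promoters. In these windows no match of 1 motif overlapped a match of another. Matching letters describe these windows and do not show that a factor binds there. CYR61, ARHGEF17, DLC1, STK3, TEAD1, ASAP1, CRIM1 and TEAD4 had no entry.

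The libraries held 17181204 to 26153506 counts on genes. Reads in lines that name no gene made up 50.5% of SW620 GFP replicate 3 and 19.98% to 24.3% of each of the other 15 libraries. Values are CPM, counts scaled to library size on 1 TMM scale of all 16 libraries, and log2 fold changes are from edgeR with an approximate standard error (SE). A gene is called when its adjusted p, over all genes tested in a comparison, is below 0.05. LEF1, to which reads of the construct can also count, was 48.8 to 52.9 CPM in SW480 GFP and 173 to 273 in SW480 dnLEF1. In SW620 it was 2.82 to 3.92 CPM with GFP and 20.1 to 25.6 with dnLEF1. Of 11 colon epithelium markers CDX1 and CDH17 had no count in SW480 dnLEF1, CDX1 had none in either SW620 group, and the summed level was 10723 to 12487 CPM in SW480 GFP and 7087 to 8509 in SW480 dnLEF1. In SW620 that sum was 9933 to 12245 CPM with GFP and 8531 to 10832 with dnLEF1. Of the 8 colon markers tested 7 fell and 1 rose in SW480 with dnLEF1, beside 24.4% and 24.2% of all genes. In SW620 3 of 8 fell, 0 rose and 5 were not called, where 2.43% of all genes fell and 6.03% rose. The part of these changes in the results below was not tested. Summed markers of other cell types were low but differed between groups. For 8 fibroblast genes the sum was 8.88 to 17.6 CPM in SW480 GFP and 14.9 to 37.996 in SW480 dnLEF1, with DCN at 0 in both and LUM at 0 with dnLEF1. Only 3 fibroblast genes were tested there, and 1 rose and 2 fell (median log2 change -1.87), so most went against the sum. For 6 immune genes the sum was 4.90 to 6.24 CPM and 8.59 to 11.3, with PTPRC and CD3E at 0 with dnLEF1, and for 4 endothelial genes 0.434 to 1.37 CPM and 2.19 to 3.79. Of 3 immune genes tested 2 rose and 1 was not called, and the 1 endothelial gene tested rose. In the 8 SW620 libraries these sums were 22.3 to 34.3, 4.74 to 6.996 and 0.983 to 1.97 CPM. The immune sum was higher with dnLEF1 in SW620 too, at 5.97 to 6.996 CPM against 4.74 to 5.76. The part of these markers in the results was not tested. In bulk RNA fewer cells of a type and less RNA per cell cannot be told apart.

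Among the pathway parts of SW480, dnLEF1 was accompanied by opposite changes in the paired coactivators: WWTR1 (TAZ) rose 1.89-fold and YAP1 fell 1.42-fold. The upstream regulators NF2 and SAV1 and the kinase LATS2 rose 1.62-fold to 2.08-fold. The kinases LATS1, STK3 and STK4 fell by 1.21-fold to 1.25-fold. Of the 18 parts, all tested, 7 rose and 6 fell, where 24.2% of all 14426 genes rose and 24.4% fell (48.5% either way). The median log2 change of the parts was -0.09, and that of all genes was -0.00.

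YAP1, which encodes the coactivator YAP (chromosome 11, 102110447 to 102233424, plus strand on hg38), stood at 357, 299, 303 and 336 CPM in the 4 SW480 GFP libraries and at 197, 243, 260 and 212 CPM with dnLEF1. Every dnLEF1 library was below every GFP library, and the log2 change was -0.50 ± 0.09 (SE, edgeR adjusted p = 0.000329). WWTR1, the gene of the YAP paralogue TAZ (chromosome 3, 149517235 to 149736714, minus strand), stood at 86.6, 79.8, 79.7 and 77.8 CPM with GFP and at 139, 154, 161 and 155 CPM with dnLEF1. The groups did not overlap, with dnLEF1 higher by 0.92 ± 0.07 (SE, edgeR adjusted p = 5.33e-08).

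The 4 TEAD factors, which carry YAP and TAZ to DNA, differed from one another. TEAD3 rose from 14.7, 18, 16.6 and 17.2 CPM to 20.9, 27.9, 28.1 and 25.7 CPM, a log2 change of 0.63 ± 0.10 (SE, edgeR adjusted p = 0.000155), with no overlap. TEAD2 rose from 33.2, 43.7, 38.5 and 39.4 CPM to 47.7, 46.5, 47.4 and 50.4 CPM, a log2 change of 0.31 ± 0.08 (SE, edgeR adjusted p = 0.00548). Its groups did not overlap either, but the 20 nearest tested genes had a median log2 change of 0.25 and 17 of them were higher, so the change of TEAD2 is close to that of its neighbourhood. Of the TEAD2 exon bases 10.7% lie opposite exons of CD37. TEAD1, the most abundant of the family in CPM, was at 407, 328, 332 and 368 CPM with GFP and at 264, 361, 385 and 292 CPM with dnLEF1 (log2 -0.14 ± 0.11, edgeR adjusted p = 0.306). TEAD4 was at 48.8, 50.9, 53.4 and 48.0 CPM and at 52.2, 43.3, 44.5 and 51.0 CPM (log2 -0.07 ± 0.08, edgeR adjusted p = 0.480). For TEAD1 and TEAD4 the groups overlapped.

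Per kilobase of the canonical transcript, YAP1 was at 59.9 ± 5.15 CPM (SD, n = 4) in SW480 GFP and WWTR1 at 16.1 ± 0.767. With dnLEF1 these levels were 42.2 ± 5.27 and 30.3 ± 1.84. The order of the TEAD levels on this scale in SW480 GFP was TEAD1 (38.1 ± 3.89), TEAD4 (29.4 ± 1.42), TEAD2 (17.8 ± 1.99) and TEAD3 (5.57 ± 0.467), with no overlap between neighbours in this order. With dnLEF1 the order stayed TEAD1 (34.6 ± 6.02), TEAD4 (27.9 ± 2.62), TEAD2 (22.1 ± 0.783) and TEAD3 (8.60 ± 1.12), and the libraries of TEAD1 and TEAD4 then overlapped. The level depends on which transcript is used for the length, which the counts do not tell.

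NF2, which encodes Merlin, a membrane scaffold that activates LATS (chromosome 22, 29603556 to 29698598, plus strand), had the largest change per SE among the parts. It rose from 66.6, 64.5, 62.9 and 66.0 CPM to 124, 133, 133 and 149 CPM, a log2 change of 1.05 ± 0.07 (SE, edgeR adjusted p = 1.62e-08), with a wide gap between the groups. SAV1, the scaffold of the MST kinases (chromosome 14, 50632058 to 50668306, minus strand), rose from 69.2, 64.8, 64.1 and 69.9 CPM to 109, 134, 142 and 129 CPM, a log2 change of 0.94 ± 0.08 (SE, edgeR adjusted p = 2.63e-07). Of the SAV1 exon bases 31.9% lie opposite exons of ATL1, and the strand setting of the counts is not given in the sources used here. ATL1 itself had a log2 change of -0.34, opposite in sign to that of SAV1. LATS2, the kinase that is also a reported YAP target, rose from 35.8, 38, 39.9 and 42.4 CPM to 52.8, 67.1, 71.1 and 61.7 CPM, a log2 change of 0.70 ± 0.09 (SE, edgeR adjusted p = 1.81e-05), again without overlap. Its paralogue LATS1 was at 36.9, 30.6, 33.8 and 37.8 CPM with GFP and at 24.0, 31.1, 32.3 and 23.9 CPM with dnLEF1, so that the groups overlapped (log2 -0.32 ± 0.11, edgeR adjusted p = 0.0233).

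VGLL4, a cofactor that competes with YAP for TEAD, fell by 0.51 ± 0.07 on the log2 scale (edgeR adjusted p = 4.59e-05), from 44.6 ± 3.38 to 31.2 ± 1.18 CPM (SD, n = 4), with no overlap. Of its exon bases 23.8% lie opposite exons of ATG7 or of an unnamed gene, and the log2 value of ATG7 was -0.01. VGLL3, another TEAD cofactor, was called higher on few counts, with 38 in all GFP libraries and 94 in all dnLEF1 libraries (log2 1.27 ± 0.41, edgeR adjusted p = 0.0190). It passed the filter through the dnLEF1 libraries, so it could be called only as a rise. Its groups overlapped, at 0.237, 0.357, 0.333 and 0.775 CPM against 0.612, 1.73, 0.883 and 0.833 CPM. The remaining falls were those of STK3 (log2 -0.27 ± 0.08), STK4 (-0.29 ± 0.09) and WWC1, which encodes the upstream scaffold KIBRA (-0.21 ± 0.06). STK4 fell although its 20 neighbours had a median of 0.22. MOB1A, MOB1B and FRMD6, an upstream FERM-domain protein, did not pass the test, with log2 values of -0.12, -0.01 and -0.18.

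The small falls depended on single libraries. The LATS1 call was lost without GFP replicate 1, GFP replicate 4, dnLEF1 replicate 1 or dnLEF1 replicate 4 (edgeR adjusted p = 0.0589, 0.0807, 0.0621 and 0.0762). Those of STK3 and STK4 were lost without GFP replicate 4 (edgeR adjusted p = 0.0524 and 0.0571), and that of WWC1 without dnLEF1 replicate 2 (edgeR adjusted p = 0.0523). For VGLL3 the call was lost without GFP replicate 1, 2 or 3 or dnLEF1 replicate 2 (edgeR adjusted p = 0.0595, 0.0506, 0.0516 and 0.0841). The count of fallen parts was 3 to 6 over these fits.

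**Figure D1:**
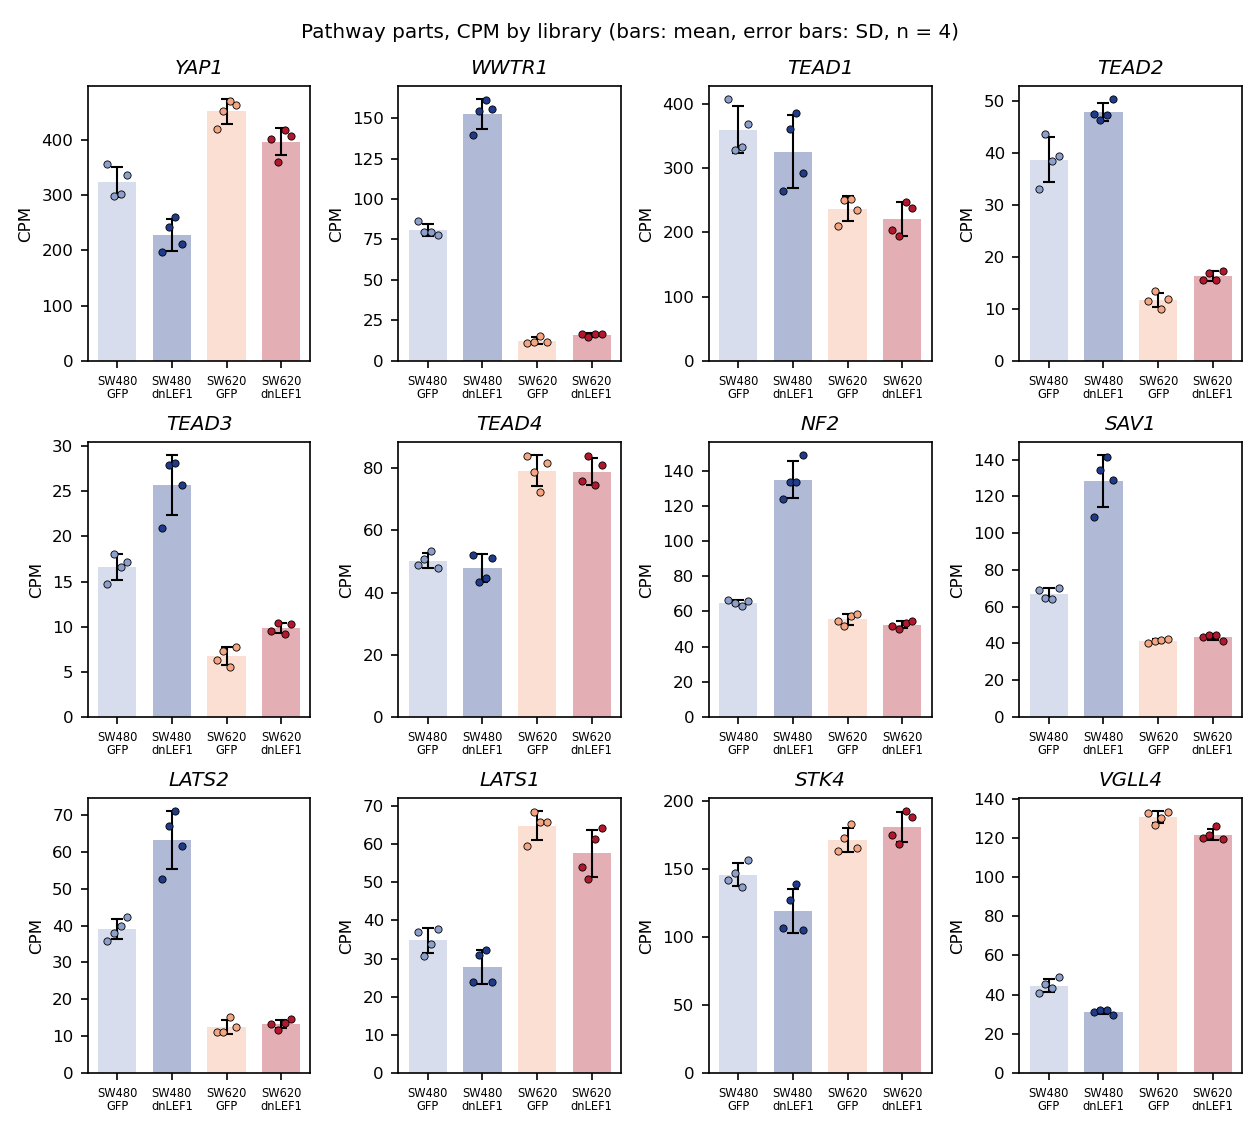
CPM (vertical axes, from 0) of 12 pathway parts in the 4 libraries of each group; points are libraries, bars are means and error bars are the SD (n = 4). In SW480, WWTR1, NF2, SAV1 and LATS2 lie higher, and YAP1 and VGLL4 lower, with dnLEF1 than with GFP, and the libraries do not overlap.

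Target genes of SW480 moved mostly upward with dnLEF1. Of 20, 19 were tested, 12 rose and 2 fell, beside the 24.2% and 24.4% of all genes. Among the risen, RBMS3 passed the filter through its dnLEF1 libraries, so it could be called only as a rise. The median log2 change of the targets was 0.59. The targets that rose at least 2-fold were CYR61, F3, THBS1, ARHGEF17, NT5E, NUAK2 and RBMS3, and no share of all genes was taken at that threshold. CTGF and ANKRD1, which are among the most used reporters of YAP activity, were not called.

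CYR61, a secreted matricellular protein that binds integrins (chromosome 1, 85580761 to 85584589, plus strand), was at 99.1, 112, 108 and 108 CPM with GFP and at 287, 451, 422 and 480 CPM with dnLEF1. The groups were far apart, although replicate 1 of dnLEF1 was well below the other 3, and the log2 change was 1.94 ± 0.13 (SE, edgeR adjusted p = 1.53e-08). CTGF, the closest relative of CYR61 among the members and also a secreted matricellular protein (chromosome 6, 131948176 to 131951372, minus strand), was at 18.1, 21.1, 22.3 and 25.0 CPM with GFP and at 10.9, 20.8, 22 and 30.2 CPM with dnLEF1. Its dnLEF1 libraries spanned the whole GFP range, with a log2 value of -0.04 ± 0.21 (SE, edgeR adjusted p = 0.883). Of the CTGF exon bases 11.9% lie opposite another gene. ANKRD1, a nuclear and sarcomeric ankyrin repeat protein (chromosome 10, 90912096 to 90921087, minus strand), was at 263, 311, 299 and 312 CPM with GFP and at 130, 252, 244 and 279 CPM with dnLEF1. Only dnLEF1 replicate 4 lay inside the GFP range, and the log2 value was -0.39 ± 0.17 (SE, edgeR adjusted p = 0.0695). ANKRD1 crossed the threshold as lower without dnLEF1 replicate 4 and in 4 other alternatives, among them the fit without replicate 1 of both groups (log2 -0.24, edgeR adjusted p = 0.01).

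F3, tissue factor, the starter of the coagulation cascade (chromosome 1, 94529173 to 94541759, minus strand), was at 13.4, 11.4, 10.9 and 12.6 CPM with GFP and at 64.3, 62.8, 60.3 and 64.4 CPM with dnLEF1, groups that were narrow and far apart. Its log2 change was 2.38 ± 0.08 (SE, edgeR adjusted p = 1.91e-11). NT5E, the surface enzyme CD73 that makes adenosine from AMP, was at 40.4, 16.6, 17.0 and 17.1 CPM with GFP and at 148, 106, 112 and 103 CPM with dnLEF1. Replicate 1 was the highest in each group, and the log2 change was 2.36 ± 0.24 (SE, edgeR adjusted p = 2.03e-06), or 2.80 without GFP replicate 1 (edgeR adjusted p = 2.01e-09). RBMS3, an RNA-binding protein gene, went from near absence, at 0.553, 0.179, 0.523 and 0.501 CPM, to 6.87, 7.62, 7.57 and 6.85 CPM. This was the largest fold among the members in this comparison (16.2-fold, log2 4.02 ± 0.22, edgeR adjusted p = 2.37e-09), from 40 counts in all GFP libraries to 665 with dnLEF1.

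THBS1, thrombospondin 1, a matrix protein that can activate latent TGF-beta (chromosome 15, 39581079 to 39599466, plus strand), rose from 67.2, 57.0, 59.2 and 68.3 CPM to 117, 197, 188 and 180 CPM. Replicate 1 of dnLEF1 was again the lowest of its group, 7.58% of the exon bases lie opposite other genes, and the log2 change was 1.44 ± 0.13 (SE, edgeR adjusted p = 5.36e-07). NUAK2, an AMPK-related kinase that feeds back on YAP (chromosome 1, 205302063 to 205321745, minus strand), rose from 4.38, 4.92, 4.28 and 5.10 CPM to 9.66, 16.7, 12.2 and 13.2 CPM, a log2 change of 1.48 ± 0.15 (SE, edgeR adjusted p = 2.27e-06). ARHGEF17, a guanine nucleotide exchange factor, rose from 18.4, 17.7, 19.4 and 19.2 CPM to 33.7, 47.0, 46.0 and 42.6 CPM, a log2 change of 1.18 ± 0.10 (SE, edgeR adjusted p = 2.26e-07). The groups did not overlap for any of these 3 genes.

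CRIM1, a transmembrane protein that binds BMPs, was at 103, 97.4, 94.7 and 110 CPM with GFP and rose to 154, 195, 201 and 192 CPM with dnLEF1, by 0.87 ± 0.08 on the log2 scale (edgeR adjusted p = 1.06e-06). AMOTL1, an angiomotin that tethers YAP at junctions and actin, was at 24.8, 19.7, 18.7 and 25.4 CPM and rose to 37.0, 40.7, 40.5 and 37.9 CPM with dnLEF1 (log2 0.82 ± 0.10, edgeR adjusted p = 9.11e-06). Its relative AMOTL2 had GFP libraries at 173, 175, 175 and 175 CPM and dnLEF1 libraries at 142, 190, 183 and 180 CPM, with the same mean of 174 CPM. DLC1, a GTPase-activating protein, rose from 28.1, 22.7, 23.7 and 28.6 CPM to levels of 34.7, 40.5, 42.0 and 37.9 CPM (higher by log2 0.59 ± 0.09, edgeR adjusted p = 0.000101). MYOF, the membrane repair protein myoferlin, rose from 199, 193, 184 and 185 CPM to levels of 248, 316, 309 and 216 CPM (higher by log2 0.52 ± 0.10, edgeR adjusted p = 0.000758). For CRIM1, AMOTL1, DLC1 and MYOF every dnLEF1 library was above every GFP library.

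The smaller rise of FJX1, a Four-jointed homologue, was 0.38 ± 0.10 on the log2 scale (edgeR adjusted p = 0.00482), with overlapping groups. The falls were those of ASAP1, an ARF GTPase-activating protein (log2 -0.32 ± 0.12, edgeR adjusted p = 0.0358), and of the stress-induced GADD45B (log2 -0.33 ± 0.11, edgeR adjusted p = 0.0222), both with overlapping groups. The ASAP1 call was lost without GFP replicate 1 or 4 or dnLEF1 replicate 1 or 4 (edgeR adjusted p = 0.108, 0.0927, 0.0939 and 0.109). The GADD45B call was lost without GFP replicate 2, 3 or 4 or dnLEF1 replicate 1 or 3 (edgeR adjusted p = 0.0599, 0.0637, 0.0574, 0.0583 and 0.0614). The count of fallen targets was 0 to 2 over the fits with 1 library left out. AJUBA, a LIM protein that inhibits LATS, and PTPN14, a phosphatase that binds YAP, did not pass the test, at 0.07 ± 0.08 and -0.04 ± 0.11 (SE). TGFB2-AS1, a noncoding RNA opposite TGFB2, was too low to be tested, with 11 counts in all GFP libraries and 30 with dnLEF1. As 38% of its exon bases lie opposite TGFB2 exons, its few counts cannot be told apart from TGFB2 reads, and TGFB2 itself had a log2 change of 1.498 in SW480.

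**Figure D2:**
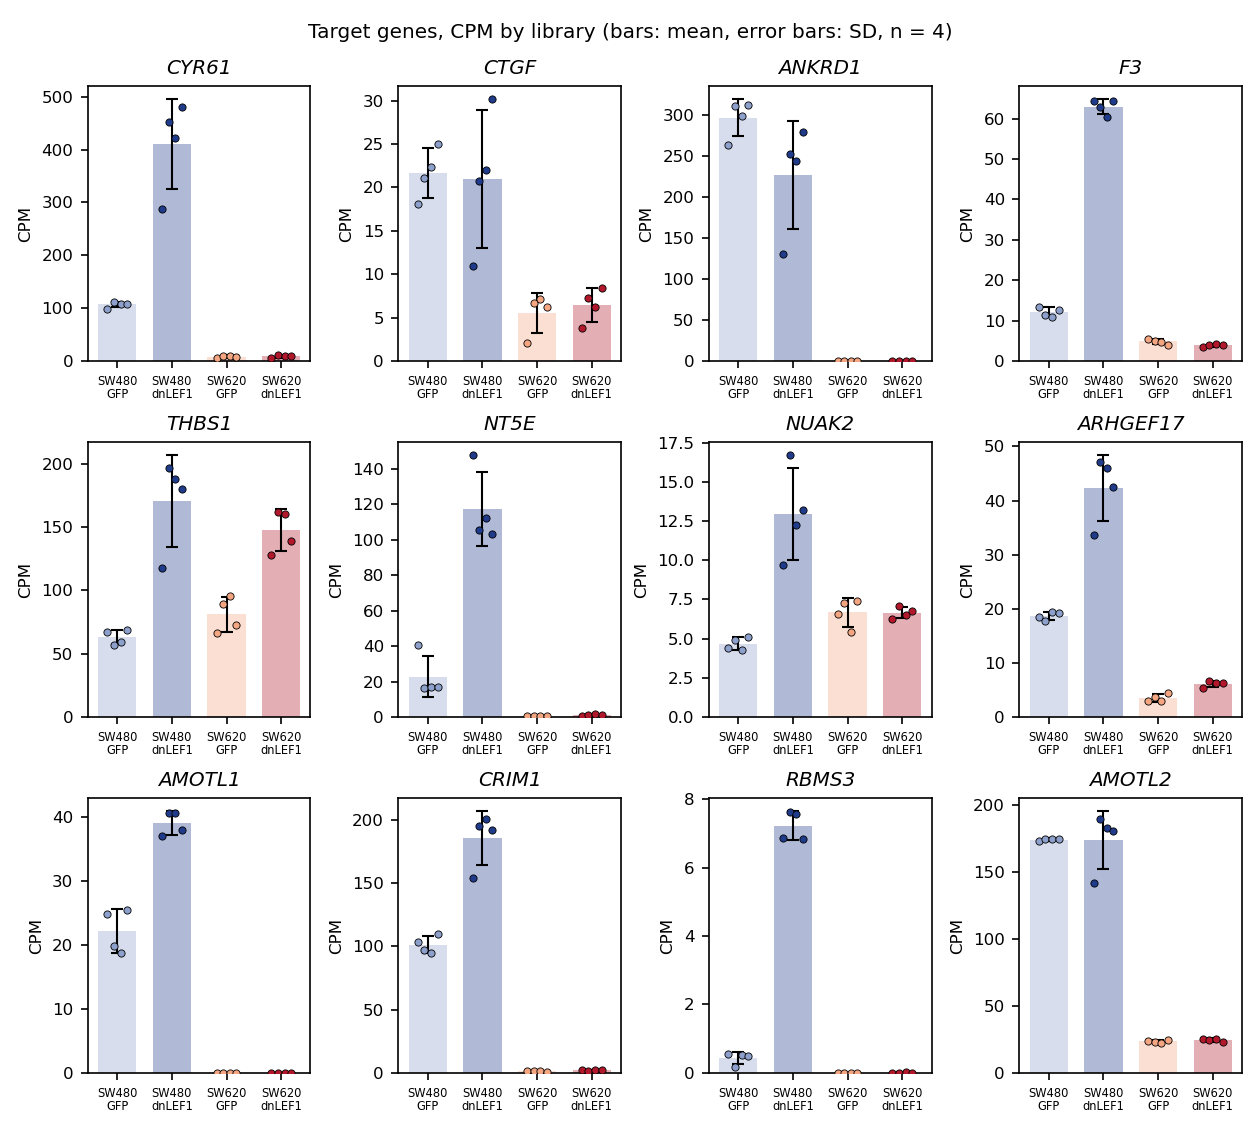
CPM (vertical axes, from 0) of 12 target genes in the 4 libraries of each group; points are libraries, bars are means and error bars are the SD (n = 4). In SW480, CYR61, F3, THBS1, NT5E, NUAK2, ARHGEF17, AMOTL1, CRIM1 and RBMS3 lie higher with dnLEF1 and do not overlap the GFP libraries, CTGF, ANKRD1 and AMOTL2 overlap, and ANKRD1, AMOTL1, RBMS3, NT5E and CRIM1 are at or near 0 in SW620.

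CYR61 and CTGF were lowest in replicate 1 of all 4 groups, which held for no other member among the 32 with more than 3 counts in each group, and for no member with replicates 2, 3 or 4. A list of 23 immediate-early and serum response genes, which respond to many of the same stimuli, had its lowest summed level in replicate 1 of all 4 groups too. In SW480 GFP that sum was 7923 CPM in replicate 1 and 8761 to 9044 in the others, and in SW480 dnLEF1 it was 9028 against 10668 to 11488. In SW620 GFP it was 9194 CPM against 10607 to 11140, and in SW620 dnLEF1 9254 against 10707 to 12001. Without replicate 1 of either group, a fit added after the pattern had been seen, CYR61 had a log2 change of 2.05 in SW480 and CTGF a value of 0.10 (edgeR adjusted p = 2.80e-10 and 0.569). The counts of risen and fallen members in SW480 were then 7 and 5 parts and 12 and 2 targets, and the fallen targets were not the same: ASAP1 lost its call (edgeR adjusted p = 0.238) and ANKRD1 gained one. LATS1 lost its call among the parts (edgeR adjusted p = 0.131). Of the immediate-early list itself 10 of 23 rose in SW480 and 2 fell, beside 24.2% and 24.4% of all genes. The rises included the actin-binding TPM1 (log2 1.22 ± 0.08), the stress factor ATF3 (1.10 ± 0.25) and the phosphatase DUSP1 (1.08 ± 0.13), and the factor EGR2 fell (-1.55 ± 0.38). Their part in the rise of the YAP targets was not tested.

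**Figure D3:**
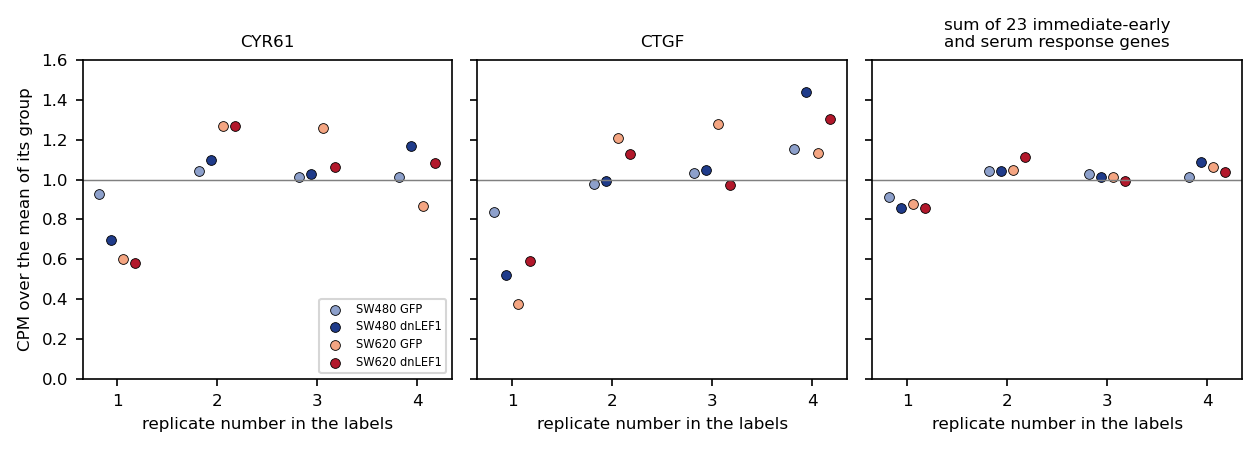
CPM of CYR61, of CTGF and of the summed immediate-early and serum response list, each divided by the mean of its group (vertical axis, from 0), against the replicate number in the labels; points are libraries, coloured by group. Replicate 1 is the lowest point of every group in each panel.

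In SW620 the same construct was accompanied by few changes. Of 17 parts tested, WWTR1, TEAD2 and TEAD3 rose, and of 15 targets THBS1, ARHGEF17 and CRIM1 rose, where 6.03% of all 13336 genes rose. No member fell, beside 2.43% of all genes, and 8.46% of all genes changed either way. At an unadjusted p below 0.05, 3 parts and 4 targets were higher in edgeR, and 1 part (YAP1) and 1 target (F3) were lower. DESeq2 called 1 part, YAP1, and no target as lower, and limma voom called none of either. The shares of all genes are by adjusted p in edgeR, so none stands beside the unadjusted, DESeq2 and limma voom counts. The median log2 value was -0.08 for the parts, 0.12 for the targets and -0.00 for all genes. The remaining 6 members, VGLL3, ANKRD1, AMOTL1, DLC1, RBMS3 and TGFB2-AS1, had 3 or fewer counts in all 4 libraries of each SW620 group.

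TEAD2 rose from 11.6, 13.5, 10.1 and 11.9 CPM to 15.5, 17.0, 15.6 and 17.4 CPM, a log2 change of 0.48 ± 0.10 (SE, edgeR adjusted p = 0.00571). TEAD3 rose from 6.30, 7.33, 5.54 and 7.77 CPM to 9.49, 10.4, 9.20 and 10.3 CPM, a log2 change of 0.54 ± 0.12 (SE, edgeR adjusted p = 0.00931). Neither gene's groups overlapped, and the neighbours of TEAD2 in this line had a median log2 value of 0.00. WWTR1 was at 11.1, 12, 15.4 and 11.5 CPM with GFP and at 16.6, 14.5, 16.6 and 16.6 CPM with dnLEF1. GFP replicate 3 lay inside the dnLEF1 range, and the change was near the threshold (log2 0.37 ± 0.11, edgeR adjusted p = 0.0492). Its call was lost without GFP replicate 1, 2 or 4 or dnLEF1 replicate 1, 3 or 4 (edgeR adjusted p = 0.0950, 0.139, 0.136, 0.113, 0.118 and 0.129).

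THBS1 rose from 66.2, 89.5, 95.5 and 73.0 CPM to 128, 162, 160 and 139 CPM, a log2 change of 0.86 ± 0.11 (SE, edgeR adjusted p = 0.000156) with no overlap. ARHGEF17 rose from 2.90, 3.73, 3.03 and 4.38 CPM to 5.39, 6.69, 6.21 and 6.18 CPM, a log2 change of 0.79 ± 0.15 (SE, edgeR adjusted p = 0.00347), also with no overlap. CRIM1, at 1.41, 1.20, 1.81 and 1.07 CPM against 2.13, 1.90, 2.67 and 2.2 CPM, did not overlap either but was near the threshold (log2 0.72 ± 0.21, edgeR adjusted p = 0.0467). The CRIM1 call was lost without any 1 library except GFP replicate 3 (edgeR adjusted p between 0.0507 and 0.151) and in DESeq2 (adjusted p = 0.0516). Without replicate 1 of both groups 2 parts and 2 targets rose, the losses being WWTR1 and CRIM1 (edgeR adjusted p = 0.183 and 0.0956).

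CYR61, F3, NF2 and YAP1, called in SW480, were not called in SW620, and CTGF was called in neither line. NT5E, risen in SW480, was not called in SW620 either, at 0.581 to 0.738 CPM with GFP and 0.692 to 1.45 with dnLEF1. Its log2 value was 0.76 ± 0.27 (SE, edgeR adjusted p = 0.118), from 57 and 99 counts in all, and the groups overlapped. CYR61 was at 4.85, 10.2, 10.2 and 7.01 CPM with GFP and at 5.09, 11.2, 9.36 and 9.54 CPM with dnLEF1 (log2 0.12 ± 0.24, edgeR adjusted p = 0.842). CTGF was at 2.09, 6.69, 7.08 and 6.25 CPM and at 3.81, 7.24, 6.25 and 8.37 CPM (log2 0.22 ± 0.30, edgeR adjusted p = 0.756). In both genes the groups overlapped over most of their range. F3 was at 5.53, 5.03, 4.74 and 3.97 CPM with GFP and at 3.46, 3.87, 4.29 and 3.98 CPM with dnLEF1 (log2 -0.30 ± 0.14, edgeR adjusted p = 0.252). NF2 was at 54.5, 51.7, 57.2 and 58.4 CPM and at 51.6, 49.8, 53.5 and 54.2 CPM (log2 -0.08 ± 0.06, edgeR adjusted p = 0.514). In F3 and NF2 the groups overlapped. YAP1 was at 420, 451, 470 and 463 CPM with GFP and at 401, 361, 418 and 406 CPM with dnLEF1, so that the groups did not overlap (log2 -0.19 ± 0.06, edgeR adjusted p = 0.0889). YAP1 was called lower without GFP replicate 1 (edgeR adjusted p = 0.0292), by DESeq2 (adjusted p = 0.0321) and with the replicate number as a block (edgeR adjusted p = 0.0112).

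SAV1 was at 39.99, 41.2, 41.7 and 42.4 CPM with GFP and at 43.4, 44.6, 44.8 and 41.5 CPM with dnLEF1 in SW620 (log2 0.08 ± 0.06, edgeR adjusted p = 0.537). LATS2 was at 11.1, 11.2, 15.1 and 12.5 CPM and at 13.4, 11.7, 13.6 and 14.5 CPM (log2 0.10 ± 0.11, edgeR adjusted p = 0.685). The groups overlapped in both of these regulators. NUAK2 was at 6.57, 7.28, 5.43 and 7.41 CPM and at 6.28, 7.06, 6.53 and 6.76 CPM (log2 -0.01 ± 0.12, edgeR adjusted p = 0.977). MYOF was at 167, 237, 232 and 255 CPM and at 191, 185, 240 and 231 CPM (log2 -0.07 ± 0.12, edgeR adjusted p = 0.807). These targets too had overlapping groups. VGLL4, from 133, 127, 130 and 133 CPM to 120, 121, 126 and 119 CPM, had groups that did not overlap, yet the difference did not pass the test (log2 -0.10 ± 0.05, edgeR adjusted p = 0.264).

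The lines' dnLEF1 comparisons share no library. All 6 members that rose in SW620 also rose in SW480. Over all genes, 274 of the 804 that rose in SW620 rose in SW480, or 34.1%. Of the 19 members that rose in SW480, 31.6% rose in SW620, beside 7.86% of all 3485 genes that rose in SW480. Only 15 of these members and 2932 of these genes were tested in SW620, and 9.35% of the 2932 rose there. Among the 6 members the SW620 calls of WWTR1 and CRIM1 were near the threshold. For TEAD2 and TEAD3 the log2 changes were 0.31 and 0.63 in SW480 and 0.48 and 0.54 in SW620. For ARHGEF17 and CRIM1 they were 1.18 and 0.87 in SW480 and 0.79 and 0.72 in SW620.

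**Figure D4:**
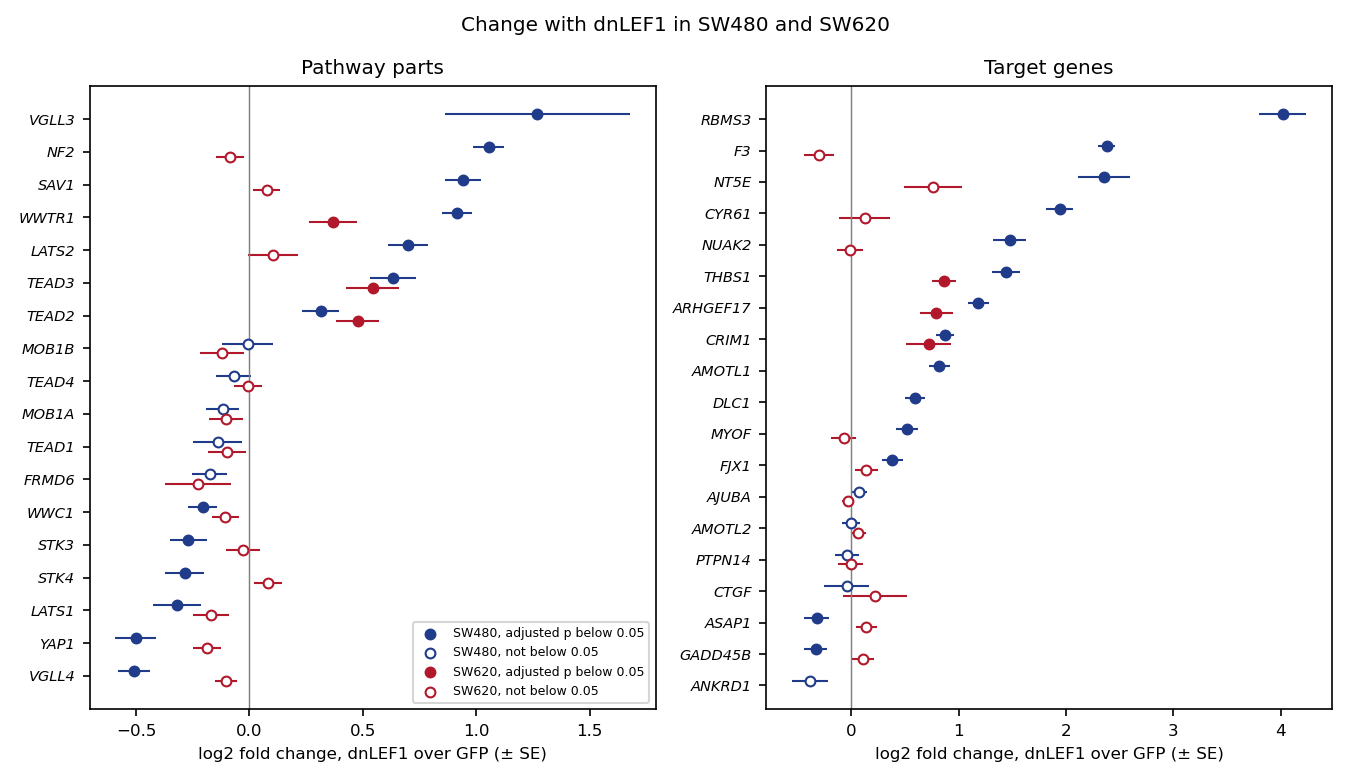
Log2 fold change of dnLEF1 over GFP (horizontal axes, ± SE) for the pathway parts and the target genes, in SW480 (blue) and SW620 (red); filled points have an adjusted p below 0.05 and open points do not, and members with 3 or fewer counts in a group of a line are left out for that line. In SW620 the filled points are WWTR1, TEAD2, TEAD3, THBS1, ARHGEF17 and CRIM1.

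Whether the effect of dnLEF1 differed between the lines was tested as an interaction over all 16 libraries, which shares its samples with both single-line comparisons. A negative value means that the log2 change was lower in SW620 than in SW480. Of 18 parts 3 were called positive and 4 negative, and of 19 targets tested 2 were called positive and 5 negative, where 16.2% of all 14926 genes were positive and 12.3% negative (28.5% either way). The members tested include VGLL3, ANKRD1, AMOTL1, DLC1 and RBMS3, whose few or absent SW620 counts left little scope for a call. Among the members called, F3 had the lowest value (-2.68 ± 0.14, edgeR adjusted p = 9.80e-12), with a log2 change of 2.38 in SW480 beside -0.30 in SW620. CYR61 followed at -1.81 ± 0.28 (edgeR adjusted p = 5.37e-05), then NUAK2 at -1.48 ± 0.20 (edgeR adjusted p = 1.10e-05) and NF2 at -1.14 ± 0.09 (edgeR adjusted p = 2.68e-09). SAV1 (-0.86 ± 0.10), LATS2 (-0.59 ± 0.15), MYOF (-0.59 ± 0.17), THBS1 (-0.58 ± 0.19) and WWTR1 (-0.54 ± 0.12) were the other negative values called. THBS1 and WWTR1 thus rose in both lines, and more in SW480 by this test. For NT5E, risen in SW480 alone, the value of -1.59 ± 0.62 was not called (edgeR adjusted p = 0.0621).

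Positive values were called for ASAP1 (0.47 ± 0.17), GADD45B (0.44 ± 0.16), VGLL4 (0.41 ± 0.08), STK4 (0.37 ± 0.11) and YAP1 (0.32 ± 0.11), genes that fell in SW480 and did not pass the test in SW620. Those of ASAP1, GADD45B, YAP1 and THBS1 were near the threshold (edgeR adjusted p = 0.0418, 0.0478, 0.0406 and 0.0273). The YAP1 value was lost without SW480 GFP replicate 1 or 4, SW480 dnLEF1 replicate 1 or 4, SW620 GFP replicate 1, 2 or 4, or SW620 dnLEF1 replicate 1, 3 or 4 (edgeR adjusted p between 0.0554 and 0.0965). That of ASAP1 was lost without SW480 GFP replicate 1 or 4, SW480 dnLEF1 replicate 1 or 4, SW620 GFP replicate 1, 3 or 4, or SW620 dnLEF1 replicate 1, 3 or 4 (edgeR adjusted p between 0.0537 and 0.107). The GADD45B value was lost without SW480 GFP replicate 2, 3 or 4, SW480 dnLEF1 replicate 1, 2 or 3, any SW620 GFP library, or SW620 dnLEF1 replicate 2 or 4 (edgeR adjusted p between 0.0519 and 0.102). That of THBS1 was lost without SW480 GFP replicate 2 or 3, SW480 dnLEF1 replicate 2 or 4, SW620 GFP replicate 2 or 3, or SW620 dnLEF1 replicate 1 or 4 (edgeR adjusted p between 0.0519 and 0.0637). Without replicate 1 of every group the positive parts came to 1 and the positive targets to 1, and STK4 also lost its call (edgeR adjusted p = 0.0657). No interaction value is given for VGLL3, ANKRD1, AMOTL1, DLC1 or RBMS3, because SW620 had at most 3 counts of them in a group.

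The control lines themselves differed widely in these genes, and most targets were lower in SW620. Among 18 targets tested 13 were lower and 3 higher in SW620 GFP than in SW480 GFP, and among 17 parts 10 were lower and 6 higher. The lower targets include ANKRD1, AMOTL1 and DLC1, with 3, 0 and 0 counts in SW620 GFP. These passed the filter through SW480 GFP alone, so they could be called only as lower. Over all 14350 genes 40.3% were lower and 37.7% higher, 78.0% in either direction. The median log2 difference was -2.2 for the targets, also with the genes at 0 set to their bounds, -0.61 for the parts and -0.02 for all genes. The GFP libraries also serve as the controls of the dnLEF1 comparisons. Each line is 1 cell line, so the differences are between these lines.

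Several targets were at or near 0 in SW620. AMOTL1 had no count in any of the 8 SW620 libraries, at least 631-fold lower in SW620 GFP than in SW480 GFP against a floor of 3 counts over the group. DLC1 had none either, at least 733-fold lower. The 20 neighbours of DLC1 had a median log2 difference of -0.82, with 14 called lower and 5 higher. Those of AMOTL1 had a median of 0.31, with 12 called higher and 3 lower. RBMS3 had no count in SW620 GFP, at least 12.5-fold lower. ANKRD1 had 3 counts in SW620 GFP and 26748 in SW480 GFP, a ratio of 8351 (95% interval 2857 to 40498, counting error only). The cofactor VGLL3 had 2 counts against 38 (ratio 17.8, interval 4.60 to 152) and TGFB2-AS1 1 count against 11 (ratio 10.3, interval 1.4975 to 443). TGFB2, whose reads the TGFB2-AS1 counts may hold, was lower in SW620 GFP by 3.79 on the log2 scale.

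Among targets present in both lines, CRIM1 was 74.8-fold lower in SW620 GFP (101 ± 6.81 against 1.37 ± 0.323 CPM, SD, n = 4). NT5E was 34.0-fold lower (log2 -5.09 ± 0.36, edgeR adjusted p = 7.29e-09) and CYR61 13.4-fold lower (log2 -3.74 ± 0.16, edgeR adjusted p = 2.34e-11). AMOTL2, which encodes an angiomotin, was 7.43-fold lower, ASAP1 6.26-fold, ARHGEF17 5.32-fold, CTGF 3.95-fold and F3 2.52-fold lower. The 20 neighbours of AMOTL2 had a median log2 difference of -0.58, with 18 called lower and 0 higher. Those of CTGF had a median of 0.97, with 14 called higher and 5 lower. GADD45B and FJX1 were lower by 1.57-fold and 1.34-fold. THBS1, AJUBA and NUAK2 were the 3 higher targets, by 1.28-fold, 1.35-fold and 1.43-fold, and MYOF and PTPN14 did not pass the test. In each of these genes but THBS1, FJX1, MYOF and PTPN14 the control groups did not overlap.

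Among the parts the coactivators again moved apart: YAP1 was 1.39-fold higher in SW620 GFP (324 ± 27.8 against 451 ± 22.3 CPM) and WWTR1 6.52-fold lower (81.0 ± 3.86 against 12.5 ± 1.98 CPM). The 20 neighbours of WWTR1 had a median log2 difference of -0.78, with 16 called lower and 2 higher. Those of YAP1 had a median of 0.21, with 10 called higher and 4 lower. Per kilobase YAP1 was at 83.5 ± 4.14 CPM in SW620 GFP and WWTR1 at 2.48 ± 0.393. TEAD4 was 1.57-fold higher in SW620 and TEAD1, TEAD2 and TEAD3 were 1.53-fold, 3.30-fold and 2.47-fold lower, so that per kilobase TEAD4 (46.3 ± 2.95) stood above TEAD1 (25.1 ± 2.08) in that line. LATS1 was 1.86-fold higher and LATS2 3.16-fold lower. VGLL4 was 2.92-fold higher, and FRMD6 had the largest difference among the tested parts, 9.87-fold lower. MOB1B and STK4 were higher by 1.25-fold and 1.17-fold, SAV1, MOB1A, WWC1 and NF2 lower by 1.63-fold, 1.63-fold, 2.19-fold and 1.18-fold, and STK3 did not pass the test. The 20 neighbours of MOB1B had a median log2 difference of 0.66, above its own 0.32, and those of STK4 had -0.65. The part of the neighbourhoods in the differences between the lines was not tested.

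**Figure D5:**
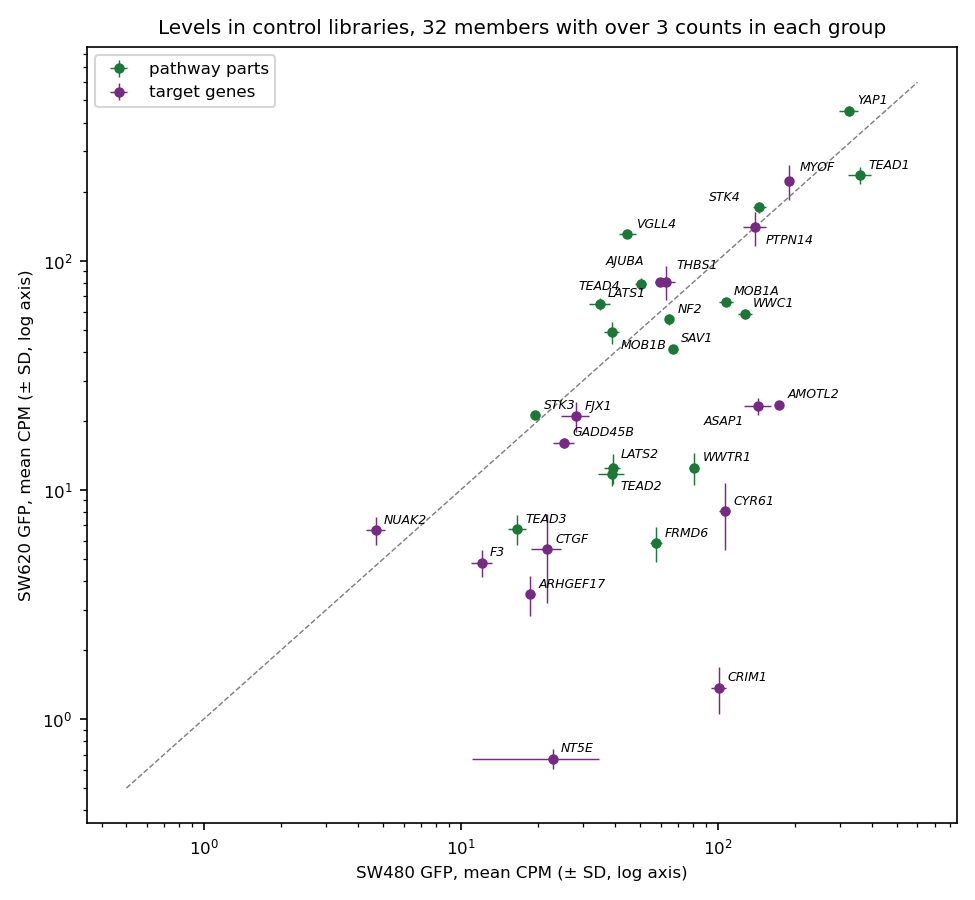
Mean CPM in SW620 GFP against SW480 GFP (log axes, ± SD, n = 4 on each axis) for the 32 members with more than 3 counts in each group; the dashed line marks equal levels. Most target genes, with CRIM1, NT5E and CYR61 farthest, lie below the line, and VGLL4, LATS1, TEAD4 and YAP1 lie above it.

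Other genes of the pathway were followed through 2 further lists. Of 45 further Hippo regulators in the files 40 were tested in SW480, and 10 rose and 15 fell, beside 24.2% and 24.4% of all genes, so that the share that rose is near the background. The largest falls were those of RASSF6, a RASSF protein that binds MST kinases (log2 -2.91 ± 0.16, edgeR adjusted p = 2.43e-09), from 12.8 ± 2.34 to 1.69 ± 0.221 CPM (SD, n = 4), and of TNIK, a MAP4K-family kinase that also binds TCF4 (log2 -1.26 ± 0.11, edgeR adjusted p = 4.08e-07). In SW620 RASSF6 was at 162 ± 13.4 CPM with GFP and 160 ± 13.2 with dnLEF1. Of the 40 tested in SW620 none rose, 1 fell, the polarity gene CRB3 (log2 -0.45 ± 0.09, edgeR adjusted p = 0.00638), and 39 were not called. At an unadjusted p below 0.05, 2 were higher and 6 lower in edgeR, while DESeq2 called 2 as risen and 2 as fallen and limma voom called 0 and 1. For these further counts no share of all genes is given, so they cannot be set against a background.

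Of 26 further reported YAP and TEAD targets 23 were tested in SW480, of which 13 rose and 6 fell, beside 24.2% and 24.4% of all genes, so that the share that fell is near the background. CAV1, the caveolar coat protein (log2 1.53 ± 0.10), and the receptor kinase AXL (1.06 ± 0.08) were among those that rose. IGFBP3, which binds insulin-like growth factors (log2 -2.13 ± 0.10, edgeR adjusted p = 5.92e-10), FOXF2, a forkhead factor (-1.19 ± 0.11), and PHLDB2, a cortical microtubule anchor (-1.02 ± 0.09), fell. In SW620, 7 of 20 rose and 1 fell, beside 6.03% and 2.43% of all genes. EREG, an EGF receptor ligand, was at 1.61 ± 0.137 CPM with GFP and rose to 5.46 ± 1.35 CPM with dnLEF1, by 1.76 ± 0.19 on the log2 scale (edgeR adjusted p = 4.47e-05). The collagen gene COL8A1 (1.22 ± 0.15) and the ligand gene TGFB2 (1.02 ± 0.29) rose as well. The single fall was that of EDN1, which encodes endothelin 1 (log2 -0.82 ± 0.21), named, like CRB3, only to say which gene the count holds. Of the 23 immediate-early and serum response genes 22 were tested in SW620, and 0 rose and 0 fell by edgeR, DESeq2 or limma voom. With each tool 1 was higher at an unadjusted p below 0.05, a threshold for which no share of all genes is given.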

How the data were processed

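Polyadenylated RNA was sequenced from 16 libraries, 4 in each of 4 groups, after TruSeq library preparation per the labels' protocols. For every gene the authors deposited an unnormalized count of its reads, and the submitters' processing notes name Trimmomatic, TopHat2, HTSeq, DESeq2 and the hg38 build. Not given in the sources used here are tool versions, the gene annotation and whether counting used strand. The 5 summary lines that name no gene were left out.

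Each comparison was fitted with edgeR 4.0.16 (R 4.3.3) on its own 8 libraries, with TMM scaling, the filterByExpr filter and the quasi-likelihood test. The interaction was fitted on all 16. P-values were adjusted by Benjamini-Hochberg over all genes tested, and the SE is the absolute log2 fold change divided by the square root of F. Printed CPM come from 1 TMM scale of the 16 libraries. The code was tested on simulated data. limma 3.58.1 (voom), DESeq2 1.42.0, RLE scaling, no filter, a replicate block, a joint fit and leaving out each library were the alternatives, and leaving out replicate 1 of every group was added after seeing the data.

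Positions and canonical transcript lengths are from GENCODE 44 on hg38, where all 38 members were placed. Neighbours are the 10 tested genes on each side. Promoters are from RefSeq, cut to the 250 bases before the start from the 300-base window planned. The members and lists were chosen with earlier results of these data known. Every SW480 library value is given for YAP1, WWTR1, TEAD1 to TEAD4, CYR61, CTGF and ANKRD1 and for members called in a dnLEF1 comparison or the interaction with an absolute log2 value of at least 0.58. Their SW620 library values are given for CTGF and for those called in SW620 or in the interaction. Other members are named to say which made up a count, and a few of these also have their library values. Genes of the added lists were named where called with a log2 value of at least 1, up to 6 per list and comparison. A gene that this rule selects is not reported here. Replicate pairs differed by 1.99 to 22.2 times the counting noise (chi-square per degree of freedom), so none was counted as 1 library. In both SW480 groups replicates 2 and 3 were the closest pair, at 1.99 with GFP and 2.33 with dnLEF1. The other SW480 pairs lay at 6.78 to 22.2. The labels do not say whether replicates 2 and 3 were separate cultures, and if they were not, the SW480 p-values are too small. Figures were drawn with Python 3.11.15 and matplotlib 3.10.9.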

Additional observations from a re-analysis of the deposited data

Results flagged for a closer look

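In 10 of 140 sets of 4 libraries (1 member in 1 group each) a single library lay far from the other 3, where chance alone gives about 1 in 20. In SW480 GFP these were AMOTL2 (replicate 1 lowest, 172.7 CPM), AJUBA (replicate 1 lowest, 57.1 CPM), GADD45B (replicate 1 lowest, 21.7 CPM), NT5E (replicate 1 highest, 40.4 CPM) and RBMS3 (replicate 2 lowest, 0.179 CPM). AJUBA was also lowest in SW480 dnLEF1 replicate 1, at 52.9 CPM. In SW620 GFP they were CTGF (replicate 1 lowest, 2.09 CPM), PTPN14 (replicate 1 lowest, 104 CPM) and STK3 (replicate 4 highest, 21.4 CPM). WWTR1 was lowest in SW620 dnLEF1 replicate 2, at 14.5 CPM. For AMOTL2 the other 3 libraries were so close together that a small gap stood out.

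For 14 members the effect of dnLEF1 differed between the lines by the interaction test, given here as the log2 effect in SW620 minus that in SW480. Among the pathway parts the values were 0.32 for YAP1, -0.54 for WWTR1, -0.59 for LATS2, 0.37 for STK4, -0.86 for SAV1, -1.14 for NF2 and 0.41 for VGLL4. Among the target genes they were -1.81 for CYR61, -2.68 for F3, -0.58 for THBS1, 0.47 for ASAP1, 0.44 for GADD45B, -0.59 for MYOF and -1.48 for NUAK2.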

How the results depend on the processing

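The alternatives were run for the counts of members and for 37 member values in SW480, 21 in SW620, 29 between the control lines and 14 of the interaction, a set narrowed after a first run. Among called values, 20 of 27 in SW480, 4 of 6 in SW620, 29 of 29 between the lines and 9 of 14 of the interaction stayed past the threshold in every alternative. In the values left out of this set, 6 of 165 changed sign in SW620 (1 member), 3 of 45 between the lines (1 member) and 27 of 396 of the interaction (7 members). There, NT5E was called in an alternative in SW620, MYOF and PTPN14 between the lines, and ARHGEF17 and NT5E in the interaction.

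DESeq2 called 1 fallen part in SW620 in place of 0. The interaction's positive targets came to 1 with limma voom and 0 with RLE scaling, in place of 2. Replicate numbers were not taken to pair the samples, since not every same-numbered pair correlated: the correlations of same-numbered libraries were 0.269, -0.0183, -0.106 and 0.0162 in SW480, 0.388, -0.0232, 0.219 and 0.237 in SW620, and 0.196, 0.0242, -0.0505 and 0.138 between the lines. Differently numbered libraries lay at -0.371 to 0.252 in SW480, -0.321 to 0.124 in SW620 and -0.255 to 0.129 between the lines. In SW620 every same-numbered pair but that of replicate 2 was above this range, and replicate 1 correlated in each comparison. The unpaired fits may therefore miss a part that same-numbered libraries share. With the replicate number as a block the SW480 counts came to 7 and 6 parts and 12 and 2 targets, but among the fallen targets ASAP1 lost its call (edgeR adjusted p = 0.0593) and ANKRD1 gained one (log2 -0.44, edgeR adjusted p = 0.0125). In SW620 the block gave 1 fallen part, YAP1 (log2 -0.19, edgeR adjusted p = 0.0112), and 676 fallen genes in all in place of 324.

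Without a single library, fallen parts in SW480 came to 3 to 6, fallen targets in SW480 to 0 to 2, fallen parts in SW620 to 0 to 1, and positive interaction targets to 0 to 1. Without replicate 1 of every group, 5 targets were higher between the lines in place of 3, and the interaction had 1 positive part and 1 positive target. Some values that were not called changed sign. In SW480 AMOTL2 was 0.0018 with DESeq2, 0.0018 with RLE scaling and 0.0015 with no filter, in place of -0.0012. Without replicate 1 of every group, TEAD1 was 0.01995, MOB1B 0.13, CTGF 0.10, AMOTL2 0.087 and PTPN14 0.13 in SW480, and TEAD4 0.038 and NUAK2 0.0038 in SW620. Without a single library of SW480, MOB1B ranged from -0.11 to 0.10, CTGF from -0.27 to 0.17, AMOTL2 from -0.039 to 0.083 and PTPN14 from -0.14 to 0.049. Without a single library of SW620, TEAD4 ranged from -0.046 to 0.0196, CYR61 from -0.059 to 0.31, CTGF from -0.054 to 0.40, GADD45B from -0.0022 to 0.18 and NUAK2 from -0.093 to 0.044. For these signs the cause was not tested. For the members with 3 or fewer counts per SW620 group, no effect of dnLEF1 could be measured in SW620.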

Other observations

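The 15 target genes with a promoter sequence were also set beside their call in SW480, after the values had been seen, as a description with no test. The TEAD core was present in 2 of the 8 that rose (THBS1 and NUAK2), in 0 of the 1 that fell and in all 5 that were not called, and absent from the 1 that was not tested. CYR61, ARHGEF17, DLC1, ASAP1 and CRIM1 have no place in these counts because no promoter was at hand for them, and more distant elements were not searched.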
